A study of Homo sapiens with 6 samples.

Results

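MicroRNAs and small interfering RNAs (siRNAs) silence messenger RNAs (mRNAs) through a shared set of proteins, and 10 genes of this machinery were followed in PANC-1 cells after knockdown of CD73. The genes were AGO1, AGO2, AGO3, AGO4, DICER1, DROSHA, DGCR8, TARBP2, XPO5 and TNRC6A. They were found by matching Ensembl identifiers to gene symbols, which gave 1 row for each of the 10 among the 30735 genes of the files, and all 10 passed the filter on low values. PANC-1 is an established line of human pancreatic ductal adenocarcinoma, grown in DMEM with fetal bovine serum. The RNA-seq samples formed a knockdown group that received CD73 siRNA (n = 3) and a control group that received negative control siRNA (n = 3), each numbered 1 to 3. Lipofectamine 3000 was the transfection reagent in both groups. Both groups therefore received a small RNA, and untransfected cells were not analysed here. The sequence of the CD73 siRNA was not given in the sources used here, and all results are from a single cell line.

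In the nucleus, DROSHA, an RNase III enzyme, and its RNA-binding partner DGCR8 cut primary microRNA transcripts into hairpins. XPO5 carries the hairpins to the cytoplasm, where DICER1, with TARBP2 as a partner, trims them to short duplexes. An Argonaute protein (AGO1 to AGO4) keeps one strand as its guide, and TNRC6A, a GW182 protein, binds Argonaute and recruits the enzymes that remove poly(A) tails. A synthetic siRNA enters at the Argonaute step, and AGO2 is the member best known for cutting a fully matched target.

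DROSHA and DGCR8 are linked through RNA as well, since the DGCR8 mRNA carries microRNA hairpins. Matched by position to GENCODE release 29, the 3 mature microRNAs listed by RefSeq in DGCR8 lie in exon 2 of a DGCR8 transcript on the forward strand of chromosome 22. They are printed because they mark the place where the product of one member is itself a source of substrate for the enzyme. Capitals mark the seed, bases 2 to 8 from the 5′ end, and the 3 seeds differ.
hsa-miR-3618: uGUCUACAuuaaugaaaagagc
hsa-miR-1306-5p: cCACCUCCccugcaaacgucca
hsa-miR-1306-3p: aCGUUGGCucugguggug
In build GRCh38.p14, hsa-miR-3618 spans 20085797 to 20085818, in the untranslated part of the exon ahead of the coding start at 20085964. The arms hsa-miR-1306-5p (20086072 to 20086093) and hsa-miR-1306-3p (20086112 to 20086129) lie in the coding part. The microRNAs themselves were not analysed here.

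The deposited values were read as RPKM, that is, reads scaled to the length of the gene in kilobases and to the library total. The library totals inferred from them were between 15009113 and 16836208 reads. NT5E, the gene of CD73, was at 3.36, 6.85 and 8.22 RPKM in CD73 siRNA samples 1, 2 and 3 and at 13.96, 13.87 and 17.14 RPKM in negative controls 1, 2 and 3, so the knockdown was present in every pair. The epithelial keratins KRT8 (30.0 to 158 RPKM) and KRT18 (36.3 to 87.0 RPKM) were present in every sample. KRT19 was at 3.59 to 5.39 RPKM, and KRT7 did not exceed 0.107 RPKM. The epithelial genes EPCAM (0.582 to 1.71 RPKM) and CDH1 (0.421 to 1.69 RPKM) were low in every sample. The leukocyte gene PTPRC and the endothelial gene PECAM1 stayed at or below 0.0230 RPKM, while COL1A1, a collagen gene of fibroblasts, was at 8.97 to 19.1 RPKM. Both keratins moved with the group, since KRT8 averaged 41.0 RPKM in knockdown and 104.5 RPKM in control cells and KRT18 43.3 and 70.4 RPKM, without overlap between the groups. Both were past an unadjusted p of 0.01 in limma (adjusted p = 0.303 for each), and their part in the results for the 10 genes was not tested.

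None of the 10 genes passed the study's threshold of an unadjusted p below 0.01 in limma's moderated test on log2(RPKM + 1), a threshold that 3.13% of the 12527 tested genes passed (1.82% higher and 1.31% lower in the knockdown samples). At an adjusted p below 0.05 there were 0 of the 10, against 0.00798% of all tested genes, which was 1 gene. That gene was an entry named Y_RNA, with a mean of 1.87 RPKM in knockdown and 0 RPKM in control cells. This low entry passed the filter through the knockdown samples alone. With 0.1 in place of the added 1, 0 genes had an adjusted p below 0.05. Other entries of that name went either way. ENSG00000200502 averaged 1.63 RPKM in knockdown and 4.47 RPKM in control cells, and ENSG00000252874 2.28 and 0.485 RPKM. NT5E itself missed an adjusted p below 0.05 (limma, unadjusted p = 0.00144, adjusted p = 0.303), so a miss does not show that a gene was unchanged. At an unadjusted p below 0.05 there were 2 of 10, DROSHA, with a higher mean in CD73 knockdown cells, and TNRC6A, with a lower mean, against 12.1% of all tested genes. In 3 of the 10 genes, DROSHA, TARBP2 and TNRC6A, the knockdown samples did not overlap the controls, as was the case for 18.4% of all tested genes (10.3% with the knockdown samples higher, as in DROSHA, and 8.07% with them lower). The median log2 difference of the 10 genes was -0.09, against 0.01 over all tested genes. The smallest Benjamini-Hochberg adjusted p among the 10 was 0.353. When the block of replicate numbers was added to the limma model, TNRC6A alone was past an unadjusted p of 0.01, with a lower mean in knockdown cells. The same model put 7.57% of all tested genes past it, 4.27% higher and 3.3% lower. In such bulk samples, a difference in the make-up of the cells and a difference in RNA per cell cannot be told apart.

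**Figure D1:**
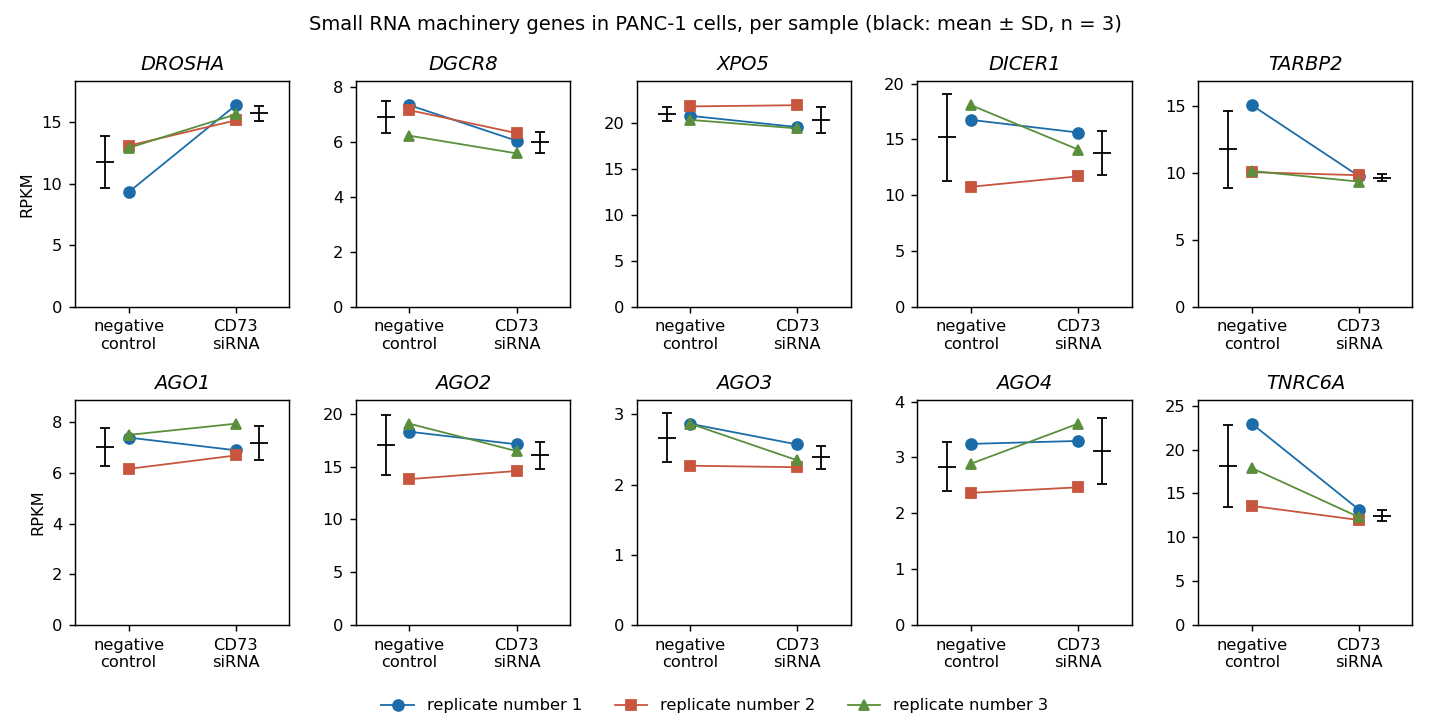
RPKM (vertical axes, each starting at 0) of the 10 genes in the 3 negative control and 3 CD73 siRNA samples; lines join samples with the same replicate number, and black bars give the mean and SD (n = 3). The DROSHA points of the CD73 siRNA samples (15.2 to 16.4 RPKM) lie above all controls, those of TNRC6A (12.0 to 13.2 RPKM) below all controls, and negative control 1 is at the extreme of both genes and of TARBP2.

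DROSHA (ENSG00000113360, chromosome 5, 31400497 to 31532196, reverse strand) encodes the nuclear RNase III enzyme. CD73 siRNA samples 1, 2 and 3 gave 16.4, 15.2 and 15.6 RPKM, and negative controls 1, 2 and 3 gave 9.31, 13.1 and 12.9 RPKM. All 3 knockdown samples were higher than all 3 controls, and negative control 1 was the lowest sample. Knockdown cells averaged 15.7 ± 0.621 RPKM and control cells 11.8 ± 2.13 RPKM (SD, n = 3 per group), a log2 difference of 0.40 with a standard error of 0.14 and a 95% interval from 0.08 to 0.72. This difference missed the threshold (limma, unadjusted p = 0.0194, adjusted p = 0.353, exact two-sided permutation p = 0.1). The permutation value is the smallest that 3 samples against 3 allow. Within replicate numbers 1, 2 and 3 the log2 difference was 0.75, 0.20 and 0.26. Without negative control 1 it was 0.26 over the remaining samples.

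DGCR8 (ENSG00000128191, chromosome 22, 20080232 to 20111877, forward strand), the RNA-binding partner of DROSHA, had 6.03, 6.31 and 5.57 RPKM with CD73 siRNA, against 7.32, 7.14 and 6.21 RPKM in the control samples. The groups overlapped by a narrow margin, between CD73 siRNA sample 2 and negative control 3. The log2 difference was -0.18, with a 95% interval from -0.43 to 0.07 (limma, unadjusted p = 0.139, adjusted p = 0.531, exact permutation p = 0.2). Within replicate numbers it was -0.24, -0.16 and -0.13, so that DGCR8 was lower in all 3 pairs in which DROSHA was higher. The ratio of DROSHA to DGCR8 RPKM was 2.72, 2.40 and 2.81 in the knockdown samples and 1.27, 1.83 and 2.08 in the controls. This ratio was looked at after the values of both genes had been seen and was not tested. Of the DGCR8 exon bases, 7.19% are shared with an antisense gene, AC006547.2, and the strand setting of the read counting is not given in the sources used here.

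XPO5 (ENSG00000124571, chromosome 6, 43522330 to 43576075, reverse strand), which exports hairpin precursors, had the highest mean level of the 10 genes in the controls and the narrowest spread. It was at 19.6, 21.9 and 19.4 RPKM with CD73 siRNA, against 20.8, 21.8 and 20.3 RPKM in the control samples. The groups overlapped, and the log2 difference was -0.05 with a 95% interval from -0.27 to 0.18 (limma, adjusted p = 0.877). On the fold scale of RPKM + 1 this interval runs from 0.830 to 1.13. XPO5 shares 4.08% of its exon bases with POLR1C on the opposite strand, a gene at 7.75 to 11.5 RPKM.

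DICER1 (ENSG00000100697, chromosome 14, 95086228 to 95158010, reverse strand), the cytoplasmic RNase III enzyme, had the widest spread between replicates of the 10 genes. Its values were 15.6, 11.7 and 14.1 RPKM with CD73 siRNA, against 16.8, 10.8 and 18.1 RPKM in the control samples. In both groups the sample numbered 2 was the lowest, and the groups overlapped. The log2 difference was -0.11, with a 95% interval from -0.56 to 0.34 (limma, adjusted p = 0.859), so these samples leave a change of either sign possible. Within replicate numbers the difference was -0.10, 0.11 and -0.34.

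TARBP2 (ENSG00000139546, chromosome 12, 53500921 to 53506431, forward strand) encodes the double-stranded RNA-binding partner of DICER1. It was at 9.76, 9.83 and 9.35 RPKM with CD73 siRNA, against 15.1, 10.1 and 10.1 RPKM in the control samples. The groups did not overlap, but negative controls 2 and 3 lay close to the knockdown samples and negative control 1 lay far above them. The log2 difference was -0.24, with a 95% interval from -0.60 to 0.12 (limma, unadjusted p = 0.163, adjusted p = 0.561, exact permutation p = 0.1). Without negative control 1 it was -0.06. The related Dicer partner PRKRA (PACT) had 8.67 ± 0.681 and 9.63 ± 0.450 RPKM in knockdown and control cells (SD, n = 3 each), with a log2 difference of -0.14 (limma, adjusted p = 0.619).

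AGO2 (ENSG00000123908, chromosome 8, 140520156 to 140635619, reverse strand), the Argonaute best known for target cutting, was at 17.1, 14.6 and 16.5 RPKM with CD73 siRNA, against 18.3, 13.8 and 19.1 RPKM in the control samples. The groups overlapped, and the log2 difference was -0.07 with a 95% interval from -0.39 to 0.25 (limma, adjusted p = 0.864). On the fold scale of RPKM + 1 the interval runs from 0.762 to 1.19. AGO2 mRNA was present in every sample of both groups.

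The other 3 Argonaute genes lie next to each other on the forward strand of chromosome 1, in the order AGO4 (ENSG00000134698, 35808172 to 35857890), AGO1 (ENSG00000092847, 35869808 to 35930528) and AGO3 (ENSG00000126070, 35930718 to 36072500). AGO1 was at 6.90, 6.69 and 7.95 RPKM with CD73 siRNA, against 7.40, 6.16 and 7.50 RPKM in the control samples. AGO3 was at 2.57, 2.25 and 2.34 RPKM with CD73 siRNA, against 2.86, 2.27 and 2.87 RPKM in the control samples. AGO4 was at 3.30, 2.47 and 3.60 RPKM with CD73 siRNA, against 3.24, 2.37 and 2.89 RPKM in the control samples. The groups overlapped in all 3 genes, and in each the sample numbered 2 was the lowest of its group. The log2 differences were 0.03 for AGO1 (95% interval -0.24 to 0.30), -0.11 for AGO3 (-0.40 to 0.18) and 0.10 for AGO4 (-0.25 to 0.45). Their adjusted p-values from limma lay between 0.743 and 0.941. Without negative control 2, the difference was -0.19 for AGO3 and 0.011 for AGO4, and without CD73 siRNA sample 2 it was 0.22 for AGO4.

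As a share of the summed RPKM of the 4 Argonaute genes, AGO2 made up 57.6 ± 1.42% in the controls and 55.9 ± 1.54% in the knockdown cells (SD, n = 3 each). AGO1 followed with 23.8 ± 1.04% and 25.0 ± 1.67%. AGO3 and AGO4 together gave the rest, with each between 7.72% and 11.9% in every sample. The sum over the 4 genes was 29.6 ± 4.31 RPKM in the controls and 28.7 ± 2.40 RPKM in the knockdown cells. The order AGO2 above AGO1 above AGO3 and AGO4 held in each of the 6 samples, and these shares are given as a description without a test. They rest on RPKM scaled to merged exon length and need not equal shares of mRNA molecules. The germline relatives PIWIL2 and PIWIL4 had at most 0.116 and 0.657 RPKM in any sample, from no more than 10 and 48 reads. PIWIL1 and PIWIL3 were looked up, but neither symbol was matched to a single row.

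**Figure D2:**
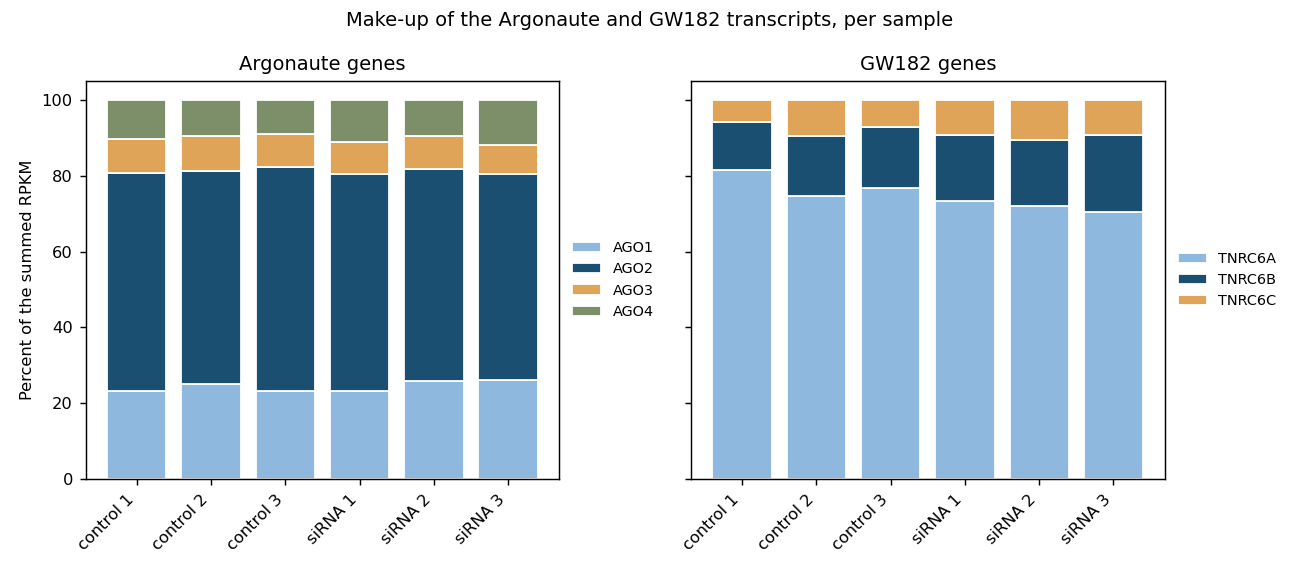
Percent of the summed RPKM (vertical axis) contributed by each Argonaute gene (left) and each GW182 gene (right) in the 6 samples. AGO2 takes 54.2% to 59.0% of the Argonaute total in every sample, and TNRC6A takes 74.7% to 81.6% of the GW182 total in the controls and 70.3% to 73.3% in the CD73 siRNA samples.

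TNRC6A (ENSG00000090905, chromosome 16, 24610209 to 24827632, forward strand) encodes the GW182 scaffold that links Argonaute to deadenylation. The knockdown samples gave 13.2, 12.0 and 12.3 RPKM, against 23.0, 13.6 and 17.9 RPKM in the controls. All 3 knockdown samples were lower than all 3 controls, and the controls were widely spread, with negative control 1 the highest and negative control 2 close to the knockdown samples. Knockdown cells averaged 12.5 ± 0.615 RPKM and control cells 18.1 ± 4.69 RPKM (SD, n = 3 per group), so the knockdown mean was 68.8% of the control mean. The log2 difference was -0.48 with a standard error of 0.17 and a 95% interval from -0.88 to -0.08 (limma, unadjusted p = 0.0243, adjusted p = 0.358, exact permutation p = 0.1). Within replicate numbers 1, 2 and 3 it was -0.76, -0.17 and -0.51. 

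The block moved TNRC6A past an unadjusted p of 0.01 (limma, adjusted p = 0.119), with the same log2 difference and a standard error of 0.12. Without the block, leaving out negative control 2 put TNRC6A past the threshold, at a log2 difference of -0.66 (limma, adjusted p = 0.0958). Without negative control 1 the difference was -0.30 (limma, adjusted p = 0.796). No other annotated gene shares exon bases with TNRC6A or with DROSHA.

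The other GW182 genes were low in comparison. TNRC6B was at 3.20 ± 0.349 RPKM in the knockdown cells and 3.37 ± 0.434 RPKM in the controls, and TNRC6C at 1.68 ± 0.0785 and 1.67 ± 0.0338 RPKM (SD, n = 3 each). Their log2 differences were -0.06 (95% interval -0.35 to 0.24) and 0.0021 (-0.27 to 0.27). The summed RPKM of the 3 GW182 genes was 17.9, 16.6 and 17.5 with CD73 siRNA, against 28.1, 18.2 and 23.3 in the control samples, and TNRC6A accounted for most of it in every sample. Whether TNRC6A differed from its paralogs in its response was not tested.

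**Figure D3:**
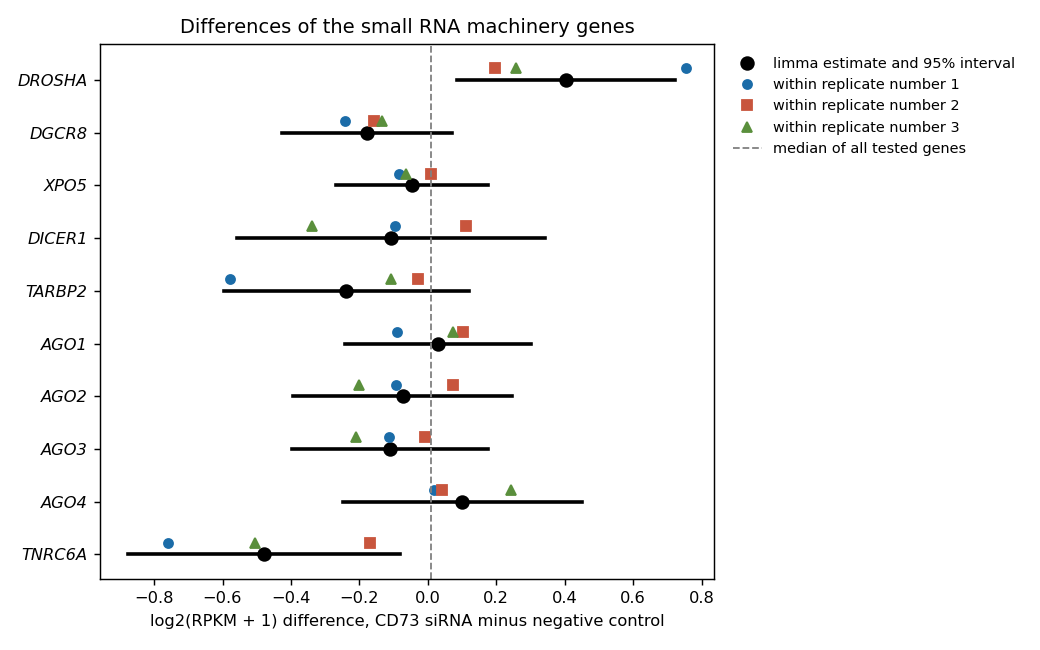
Log2(RPKM + 1) difference between CD73 siRNA and negative control (horizontal axis) for each of the 10 genes; black points and bars are the limma estimate and its 95% interval, coloured symbols the differences within replicate numbers 1, 2 and 3, and the dashed line the median of all tested genes (0.01). Only the intervals of DROSHA (0.08 to 0.72) and TNRC6A (-0.88 to -0.08) leave out 0.

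By mean RPKM in the controls, the genes ran from XPO5 (21.0) through TNRC6A (18.1), AGO2 (17.1), DICER1 (15.2), DROSHA (11.8), TARBP2 (11.8), AGO1 (7.02), DGCR8 (6.89) and AGO4 (2.83) to AGO3 (2.67). RPKM here is scaled to the merged exon length over all annotated transcripts, which need not be the length of the transcripts expressed. Levels of different genes can therefore be compared only roughly. Neighbours in this order overlapped in their control samples, with 2 exceptions, TARBP2 above AGO1 and DGCR8 above AGO4. In the controls, XPO5, TNRC6A, AGO2, DICER1, DROSHA and TARBP2 thus stood above AGO1 and DGCR8, and these above AGO4 and AGO3. Between 267 and 4759 reads stood behind each value. The counting error these reads give (0.0225 to 0.0790 on the log2 scale) was smaller than the spread between replicates in each of the 10 genes (0.0790 to 0.323).

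The samples numbered 2 had low values in both groups for several of these genes. In an additive model over the 6 samples on the log2(RPKM + 1) scale, the number accounted for 81.2% to 82.2% of the spread of AGO1, AGO2, AGO4 and DICER1. The group accounted for 1.93% to 9.40%. Over all tested genes the medians were 51.88% for the number and 20.75% for the group. With 3 levels against 2, the number tends to take the larger part by construction. The number took the larger part in 7 of the 10 genes, a share near that over all tested genes (67.5%). In DROSHA, DGCR8 and TNRC6A the group took the larger part (64.2%, 56.4% and 56.4%). The samples numbered 2 were the lowest of their group in 6 of the 10 genes, namely the 4 Argonautes, DICER1 and TNRC6A, against 16.8% of all tested genes. This count was made after the values had been seen, it is given as a description, and what the samples of one number share is not stated in the labels. In 6 of the 10 genes, the difference between knockdown and control had the same sign within all 3 numbers (DROSHA, DGCR8, TARBP2, AGO3, AGO4 and TNRC6A), against 51.4% of all tested genes.

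**Figure D4:**
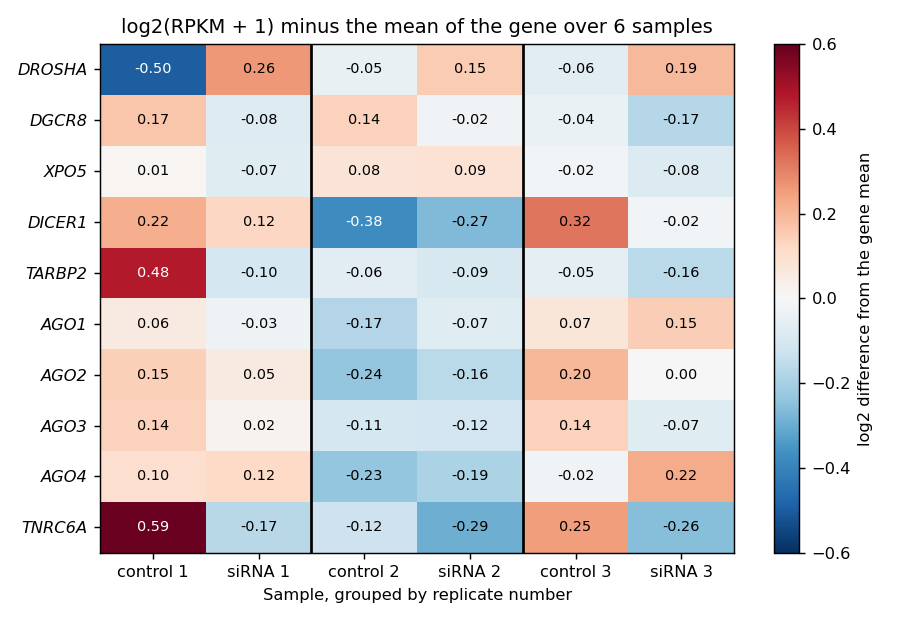
Log2(RPKM + 1) of each gene minus its mean over the 6 samples (colour and printed value), with the negative control and CD73 siRNA sample of each replicate number side by side. The columns numbered 2 are below the gene mean for AGO1 to AGO4, DICER1 and TNRC6A in both groups, while DROSHA is higher in the CD73 siRNA column of every number.

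Other genes that act with this machinery were taken from lists written from general knowledge. Of 102 such genes, 100 were matched and 87 passed the filter, and 2 of the 87 (2.3%) were past an unadjusted p of 0.01, against 3.13% of all tested genes. Their median log2 difference was -0.01. Both genes past the threshold were higher in CD73 knockdown cells. EDC3, an enhancer of mRNA decapping, rose to 7.57 ± 0.393 RPKM, from 5.35 ± 0.661 RPKM in control cells (SD, n = 3 per group), with a log2 difference of 0.44 and a standard error of 0.12 (limma, unadjusted p = 0.00535, adjusted p = 0.303, exact permutation p = 0.1). FXR2, an RNA-binding protein of the fragile X family, rose to 20.4 ± 0.0917 RPKM, from 15.8 ± 0.861 RPKM in control cells, with a log2 difference of 0.35 and a standard error of 0.09 (limma, unadjusted p = 0.00528, adjusted p = 0.303, exact permutation p = 0.1). In each gene, all 3 knockdown samples lay above all 3 controls. Leaving out CD73 siRNA sample 1, 2 or 3 or negative control 1 ended both calls, 1 list gene was left without negative control 3, and 4 list genes passed without negative control 2.

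By role, 0 of 12 nuclear processing partners passed the limma threshold (median log2 difference -0.05), with 1 (NCBP2, lower mean in knockdown cells) at an unadjusted p below 0.05, a level that 12.1% of all tested genes reached. Among 12 Dicer and loading partners, again 0 passed and 1 was below 0.05, and their median was 0.17. That gene was HSP90AA1, a chaperone of Argonaute loading named after its values were seen, at 425 ± 37.3 RPKM in knockdown and 303 ± 71.2 RPKM in control cells (limma, adjusted p = 0.353). Its log2 difference was 1.07, 0.29 and 0.18 within replicate numbers 1, 2 and 3, and negative control 1 was the lowest sample (223 RPKM, against 326 and 359 RPKM in negative controls 2 and 3). The related HSP90AB1, of the same list, averaged 1062 RPKM in knockdown and 1048 RPKM in control cells. Its groups overlapped, with a log2 difference of 0.02 (limma, adjusted p = 0.960). Of 18 genes of deadenylation, the paralogs TNRC6B and TNRC6C included, 0 passed and 1, CNOT7, was below 0.05 (median -0.01). Of 14 genes of decapping and repression, 1 passed, EDC3, and 2 were below 0.05, EDC3 and LSM14A, both with higher means in knockdown cells (median -0.06). Of 16 tested genes of microRNA tailing, turnover and regulation, 1 passed, FXR2, and 4 were below 0.05 (median -0.01). The other 3 of these, LIN28B (log2 difference -0.44), TENT2 (-0.27) and XRN2 (-0.23), had lower means in knockdown cells, opposite to FXR2, and like LSM14A, NCBP2 and OAS3 they are named after their values were seen. Among 5 tested sensors of double-stranded RNA, 0 passed and 1, OAS3 with a lower mean in knockdown cells, was below 0.05 (median -0.05), and among 10 tested transcripts that host microRNAs, 0 passed and 0 were below 0.05 (median -0.04).

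DROSHA had the smallest p of the 10 genes in the limma fit without the block, so the genes with the most similar pattern were looked up for it. With the block, TNRC6A had the smaller p. The same held without CD73 siRNA sample 1, without negative control 2, and without number 1 or number 2 in both groups. Among 7393 other tested genes with a mean of at least 5 RPKM, the nearest were CNOT7 (distance 0.1045), ATG4A (0.1046) and PLRG1 (0.1112). The distance is Euclidean, over the 6 samples, between log2(RPKM + 1) values centred on the mean of each gene. CNOT7, a catalytic subunit of the CCR4-NOT deadenylase, was at 7.37, 6.86 and 7.05 RPKM with CD73 siRNA, against 4.42, 5.96 and 5.95 RPKM in the control samples. As for DROSHA, negative control 1 was the lowest sample of CNOT7, and the groups did not overlap. CNOT7 was picked for its likeness to DROSHA over these same samples, so this likeness is not a separate result.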

How the data were processed

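Total RNA of PANC-1 cells was sequenced in 6 samples, 3 with CD73 siRNA and 3 with negative control siRNA, grouped and numbered from the sample titles. The authors deposited one RPKM value per gene and sample. The submitters' processing notes name bcl2fastq, Bowtie2 2.2.3, HTSeq 0.6.0 and hg38, and the annotation and strand setting are not given in the sources used here. The RPKM unit was read from the values. Multiplied by merged exon length (GENCODE release 29, GRCh38), they fell within 0.05 of whole reads in 95.5% to 95.6% of genes under 1000 reads, which gave the library totals. Depth was thus inferred, but reads were used for precision only, which covers counting error alone.

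Genes reaching 1 RPKM in 3 or more samples (12527) were compared on log2(RPKM + 1) by limma 3.58.1 in R 4.3.3 (trend, Benjamini-Hochberg adjustment over all tested genes), with an unadjusted p below 0.01 as threshold. Adding 1 understates the changes of low genes. The 95% intervals are from the same fit. Single genes had an exact permutation test. The study describes separate knockdown experiments, the labels do not, so p-values measure the spread between these samples, which may be technical. Samples were paired by replicate number. Deviations from the group means correlated at 0.197, 0.481 and 0.553 for numbers 1, 2 and 3. Their mean was 0.41, against -0.206 between samples of different numbers. Centring on the group mean links these values, and whether the numbers mark true pairs was not tested. The fit was tested on simulated data in which all samples varied independently. That simulation held no effect shared by samples of one number, so it cannot show how the fit handles such an effect. Alternatives were another pseudocount, no filter, rescaling, the replicate block, no moderation and leaving out samples.

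The 10 genes and the lists were chosen with earlier results of these data known. Named were the 10 genes, NT5E, list genes past the threshold, TNRC6B, TNRC6C, PRKRA and the PIWIL genes, and the 3 genes nearest in pattern to the member with the smallest p. HSP90AA1, HSP90AB1, LSM14A, LIN28B, TENT2, XRN2, NCBP2, OAS3 and the Y_RNA entries fall outside this rule and were named after their values were seen. Symbols came from the name table of the reference, which matched 30384 of 30735 identifiers. Sequences are from RefSeq (GRCh38.p14).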

Additional observations from a re-analysis of the deposited data

How the results depend on the processing

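Of 140 results of the 10 genes under 14 alternatives, 131 kept their sign and their side of an unadjusted p of 0.01, 3 moved past it (all TNRC6A) and 6 changed sign. The sign changes were near 0. With single samples left out, the log2 difference ranged from -0.050 to 0.073 for AGO1, from -0.21 to 0.0092 for AGO2 and from -0.32 to 0.026 for DICER1. The ranges without a sign change included -0.19 to -0.070 for AGO3, 0.011 to 0.22 for AGO4 and -0.10 to -0.017 for XPO5. With both samples of a replicate number left out, an alternative chosen after seeing the data, AGO1 was at -0.0077 without number 2 and DICER1 at 0.0076 without number 3, and TNRC6A passed the threshold without number 2 (-0.63). The block of the replicate number raised the count over all genes from 392 to 948 and that of the 10 genes from 0 to 1, and changed no other call among the 10. Without moderation, 216 genes and 1 list gene were past the threshold. Over single samples left out, the counts ranged from 116 to 792 for all genes, from 0 to 1 for the 10 genes and from 0 to 4 for the list genes. Over replicate numbers left out (numbers 1, 2 and 3) they were 70, 532 and 134 for all genes, 0, 1 and 0 for the 10 genes and 0, 2 and 0 for the list genes. The cause of these shifts was not tested. Rescaling and the pseudocount of 0.1 moved no call of the 10 genes. With 3 samples a group, the intervals of DICER1 and TNRC6A span the widest ranges.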
